A study of Solanum lycopersicum with 6 samples.

Results

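The genes described here are 5 tomato genes grouped under defence against wounding and herbivores: LAPA1, LAPA2, mcpi, CEVI57 and THT7-8. LAPA2 also carries names of a neutral enzyme that is made without wounding. The 5 genes were found as the non-control array probes whose accession is a RefSeq transcript of 1 of them. This gave 13 of the 43603 distinct probes on the array and 5 of the 1191 genes to which an accession gave a name. LAPA1 has 4 probes, LAPA2 has 5, CEVI57 has 2, and mcpi and THT7-8 have 1 each. All 13 entered the test, which asked for signal well above background on every array of methanol or of loliolide, and 12 had it on all 6 arrays.

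RNA came from leaves of 4-week-old plants of the dwarf tomato cultivar Micro-Tom (Solanum lycopersicum). Discs of 1 cm were cut and floated for 12 h at 25 °C under continuous light, either on 300 µM loliolide, a metabolite of carotenoids (3 samples), or on 0.1% methanol as the control (3 samples). Both groups are therefore cut leaf tissue, and no uncut leaf is part of the comparison. The methanol content of the loliolide solution is not given in the labels used here. The labels give triplicate harvests and name no separate plants, and a p-value here covers only how much these samples vary, which may be technical.

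Chewing insects and cutting switch on a defence in tomato leaves in which the hormone jasmonate turns on genes for proteins that spoil the leaf as food. Some of these proteins block the digestive proteases of the insect, and others, such as arginase, destroy amino acids in its gut. Acidic leucine aminopeptidase (LAP-A) is a late product of this pathway in tomato, whereas the neutral enzyme (LAP-N) is made without wounding. A further branch joins hydroxycinnamic acids to tyramine, and the amides harden the cell wall around the injured site.

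The 3 methanol arrays lay on one slide and the 3 loliolide arrays on another, scanned separately, so for every difference given here slide and loliolide cannot be told apart. Spots well above background made up 84.5% to 85.3% of each methanol array and 86.93% to 87.62% of each loliolide array. The tissue label was checked against marker genes. The 3 leaf photosynthesis genes found, PSBR, CAB6A and CAB4, were well above background on all 6 arrays. Their summed level was 188 to 235 times the 75th percentile with methanol and 207 to 238 times with loliolide, most of it PSBR. The other genes varied more over the arrays, with CAB6A at 9087 to 27394 and CAB4 at 6663 to 23580. Of 5 ripening fruit genes 2 were well above background on all 6 arrays, with a summed level of 1.36 to 1.44 with methanol and 2.17 to 2.42 with loliolide. Of the 3 abscission zone polygalacturonase genes 2 were so, with a summed level of 0.031 to 0.0505 with methanol and 0.0775 to 0.334 with loliolide. The part of these differences in the results below was not tested.

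The question was whether loliolide changed these defence genes. In limma 0 of the 13 probes passed an adjusted p of 0.05, where 0.783% of all 37415 tested probes passed. LAPA1 and mcpi had much lower mean signal with loliolide, with log2 differences of -2.09 and -2.17, but each also varied several-fold between arrays of the same group. THT7-8 was 1.25-fold higher with loliolide without passing, LAPA2 hardly differed, and CEVI57 varied more within each group than between them. At an unadjusted p under 0.05 limma counted 3 of the 13 probes, 2 of LAPA1 with lower signal (5.4% of all tested probes) and that of THT7-8 with higher signal (14.7%). Over the 13 probes the median log2 difference was -0.44, and 11 were lower with loliolide, while over all tested probes the median was 0.06 and 39.2% were lower. Scaling to the spike-in controls moved these medians to -0.74 and -0.24, with 12 of the 13 probes lower. Leaving out single arrays also moved the members' median. It was -0.041 with 7 of 13 lower without methanol replicate 2 and -0.18 with 8 lower without loliolide replicate 1. Without methanol replicate 3 it was -1.08, with 12 lower. Probes of 1 gene read the same RNA and are not independent. In RNA of whole discs, fewer cells of a type and less RNA per cell cannot be told apart.

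**Figure D1:**
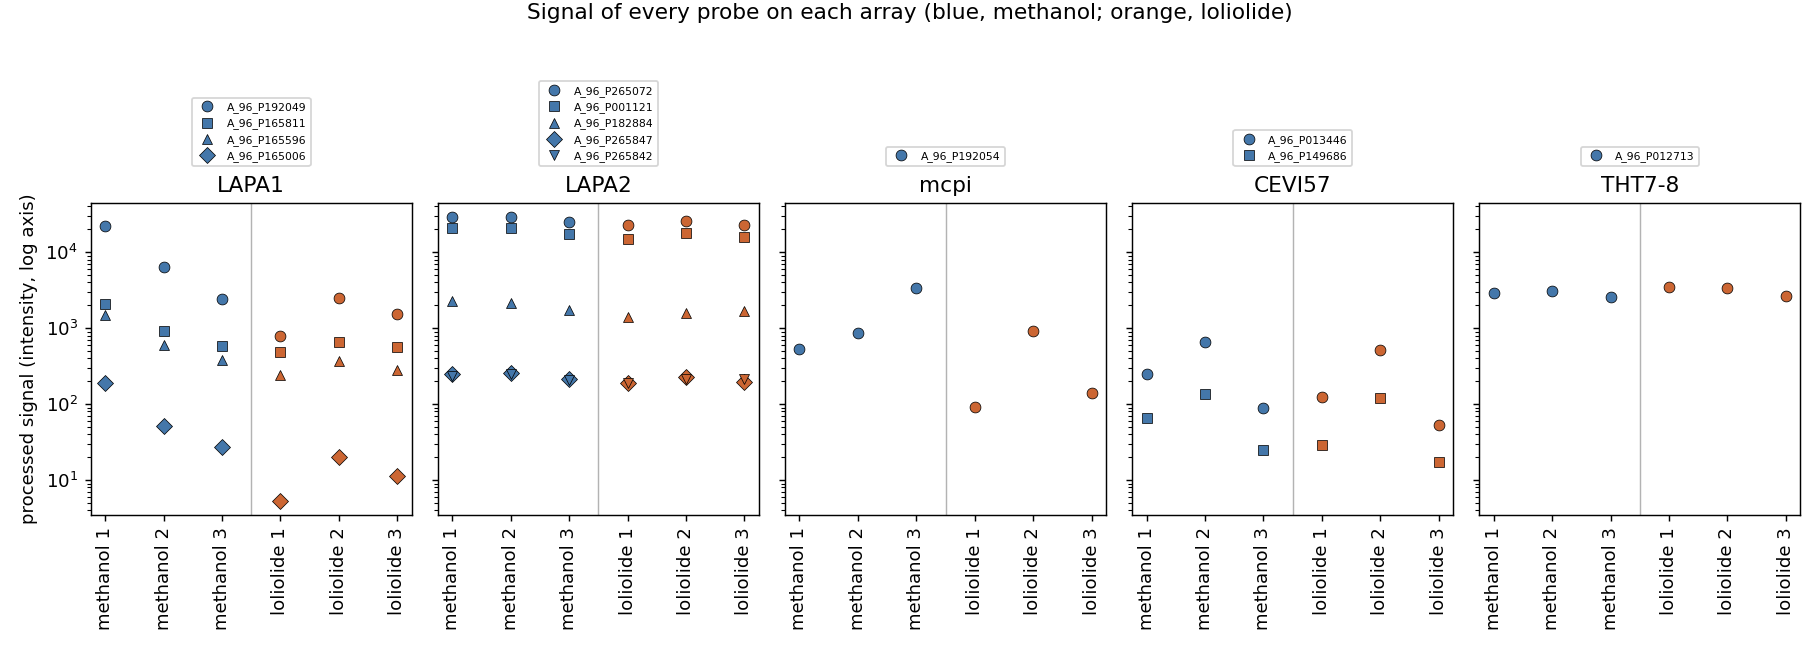
Processed signal (background-subtracted intensity, log axis) of each probe on each of the 6 arrays, with 1 panel per gene and 1 symbol per probe (blue, methanol; orange, loliolide). LAPA1, mcpi and CEVI57 spread widely within groups, each with its own highest array, while LAPA2 and THT7-8 form flat rows.

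LAPA1 (gene 544017) encodes the acidic leucine aminopeptidase, an enzyme that removes amino acids from the ends of proteins and is known in tomato as a marker of the late wound response. Its brightest probe, A_96_P192049, gave processed signals of 22062, 6410 and 2417 on methanol replicates 1, 2 and 3. On loliolide replicates 1, 2 and 3 the same probe gave 785, 2468 and 1531. Methanol replicates 1 and 2 lay above all loliolide arrays, but loliolide replicate 2 lay slightly above methanol replicate 3, so the groups overlapped. From the highest to the lowest array the scaled signal of this probe spanned 26.6-fold, of which 9.18-fold lay within the methanol group and 3.04-fold within the loliolide group.

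After scaling, the log2 signal of LAPA1 was 2.65 ± 1.60 (SD, n = 3) with methanol and 0.56 ± 0.86 (SD, n = 3) with loliolide. The difference of -2.09 (SE 0.82, 95% interval -4.04 to -0.14) did not pass (limma adjusted p = 0.224), and an exact two-sided permutation test of this probe gave p = 0.2, where the smallest p that 3 against 3 allows is 0.1. Methanol replicate 1 carried a large part of the size: without it the log2 difference was -1.26, and without methanol replicate 3 it was -2.86. With array weights in limma, which gave methanol replicate 1 a weight of 3.13 and methanol replicate 3 a weight of 0.396, LAPA1 passed at -2.85 (adjusted p = 0.0491). The same weights raised the number of passing probes on the whole array from 293 to 3527, or 9.43% of those tested. This was the 1 alternative of those tried in which the brightest LAPA1 probe passed.

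The other LAPA1 probes ranked the arrays in nearly the same way and differed in size. The dimmest, A_96_P165006, read 191, 51.9 and 27.5 on the methanol arrays and 5.36, 19.8 and 11.3 on the loliolide arrays. Its groups did not overlap, as for 9.66% of all tested probes in this direction, and it was the LAPA1 probe with the lowest adjusted p (difference -2.42, SE 0.78, limma adjusted p = 0.169). On loliolide replicate 1 it was not well above background, and with the normexp background correction its difference was -0.75 (limma adjusted p = 0.292). A_96_P165596 differed by -1.07 (limma adjusted p = 0.276) and A_96_P165811 by -0.68 (limma adjusted p = 0.432), and their groups overlapped. Without methanol replicate 1 these differences were -0.51 and -0.17. Over the 6 arrays Pearson's r between pairs of LAPA1 probes was 0.905 to 0.990, as a description of probes that share the same 6 hybridisations.

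The smaller differences of those last probes went with a constant part of their signal. In linear signal, A_96_P165811 followed the brightest probe along a straight line with an intercept of 437, or 90.3% of its own lowest reading, and r squared was 0.998 over the 6 arrays. A_96_P165596 had an intercept of 213, or 88.0% of its lowest reading, and r squared was 0.999. The dimmest probe, A_96_P165006, ran through an intercept of -0.28. Leaving out methanol replicate 1, which stretches the line, gave intercepts of 435, 200 and 1.01 in the same order, with r squared of 0.970, 0.987 and 0.956. The source of the constant part was not tested. These lines were chosen after the values were seen.

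**Figure D2:**
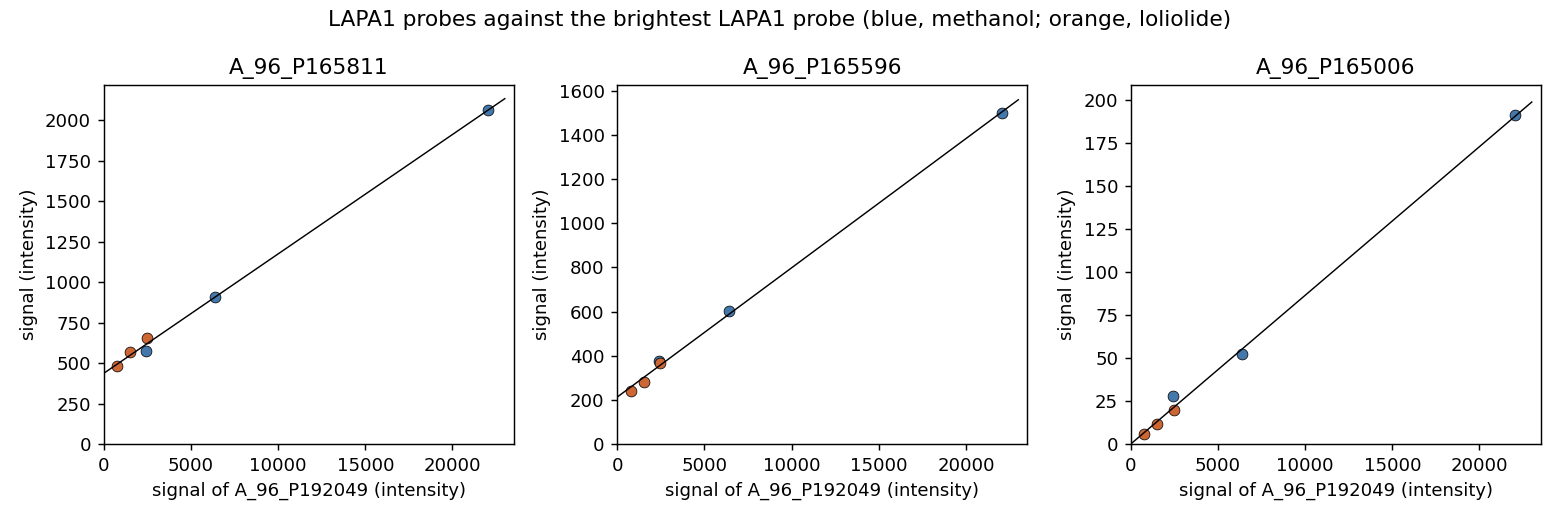
Linear signal of 3 LAPA1 probes (vertical axes, intensity) against that of the brightest LAPA1 probe A_96_P192049 (horizontal axes, intensity), with 1 point per array (blue, methanol; orange, loliolide) and the least-squares line. The lines of A_96_P165811 and A_96_P165596 meet the vertical axis at 437 and 213, and that of A_96_P165006 at -0.28.

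LAPA2 (gene 544277) is a second leucine aminopeptidase gene. The RefSeq annotation of assembly SLM_r2.1 lists LapN and preLAP-N among its other names, those of the neutral enzyme that is known in tomato as present without wounding. It lies near LAPA1 on the same chromosome, with 1 annotated gene, LOC101263597, between them. Its brightest probe, A_96_P265072, read 29066, 28906 and 24710 on methanol replicates 1, 2 and 3 and 22669, 25914 and 22609 on loliolide replicates 1, 2 and 3. These 6 values form a narrow row, and after scaling the highest belonged to loliolide replicate 3 and the lowest to loliolide replicate 1.

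The scaled log2 signal of LAPA2 was 4.63 ± 0.13 (SD, n = 3) with methanol and 4.60 ± 0.18 (SD, n = 3) with loliolide. The difference was -0.03 (SE 0.13, limma adjusted p = 0.932), with a 95% interval of -0.33 to 0.28 that leaves room for 0.795-fold to 1.21-fold. The 4 other LAPA2 probes differed by -0.20 to 0.04, their groups overlapped, and their adjusted p in limma lay between 0.595 and 0.923. Over all 5 probes the arrays spanned 1.28-fold to 1.56-fold. With spike-in scaling the difference of the brightest probe was -0.33 (limma adjusted p = 0.254).

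LAPA1 and LAPA2 were also set against each other within each array, 1 of 4 ratios to LAPA2 computed, which do not depend on the scaling between arrays. The log2 ratio of their brightest probes was -0.40, -2.17 and -3.35 on methanol replicates 1, 2 and 3. On loliolide replicates 1, 2 and 3 it was -4.85, -3.39 and -3.88. All loliolide arrays lay below all methanol arrays, by a margin of only 0.04 between loliolide replicate 2 and methanol replicate 3. The mean ratio was lower with loliolide by 2.07 (-1.97 ± 1.49 with methanol and -4.04 ± 0.74 with loliolide, SD, n = 3), with p = 0.1 in an exact two-sided permutation test, the smallest it can give (0.2 after Benjamini-Hochberg adjustment over the 4 ratios). The mean log2 ratio of mcpi to LAPA2 differed by -2.14 (exact permutation p = 0.3, adjusted 0.4) and that of CEVI57 by -0.50 (exact permutation p = 0.7, adjusted 0.7). Whether the probes of either gene also bind transcripts of the other was not tested.

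mcpi (gene 544286) encodes a small inhibitor of metallocarboxypeptidases, digestive enzymes that trim proteins from their C-terminal end. Its single probe, A_96_P192054, read 533, 867 and 3428 on methanol replicates 1, 2 and 3. On loliolide replicates 1, 2 and 3 it read 92.4, 925 and 139. The highest array was methanol replicate 3, the array on which LAPA1 was lowest in its group, and loliolide replicate 2 lay above methanol replicates 1 and 2. The 6 arrays spanned 34.9-fold, the widest span among the brightest probes of the 5 genes.

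The scaled log2 signal of mcpi was 0.07 ± 1.39 (SD, n = 3) with methanol and -2.10 ± 1.69 (SD, n = 3) with loliolide. The difference of -2.17 (SE 0.98, 95% interval -4.50 to 0.17) did not pass (limma adjusted p = 0.276), with p = 0.3 in an exact two-sided permutation test. It was -1.39 without methanol replicate 3 and -3.10 without loliolide replicate 2. Array weights in limma brought it to -0.43 (adjusted p = 0.769), the opposite of their effect on LAPA1.

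CEVI57 (gene 544108) encodes a proteinase inhibitor, a class of proteins that block the digestion of leaf protein in the insect gut. Its brightest probe, A_96_P013446, read 249.8, 663 and 89.5 on methanol replicates 1, 2 and 3. On loliolide replicates 1, 2 and 3 it read 123, 512 and 53.6. In each group replicate 2 was highest and replicate 3 lowest, and each group spanned a similar range, 7.39-fold with methanol and 7.21-fold with loliolide. The labels do not say that equal replicate numbers mark shared plants or days.

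The scaled log2 signal of CEVI57 was -2.18 ± 1.44 (SD, n = 3) with methanol and -2.70 ± 1.46 (SD, n = 3) with loliolide. The difference of -0.52 (SE 0.92, limma adjusted p = 0.788) was smaller than the SD of either group, and its 95% interval of 0.151-fold to 3.20-fold leaves the direction unsettled. It was 0.19 without methanol replicate 2, 0.09 without loliolide replicate 3 and 0.28 with array weights. The second probe, A_96_P149686, read 66.4, 135 and 25.0 on the methanol arrays and 29.3, 120 and 17.1 on the loliolide arrays. It put the 6 arrays in the same order as the first and differed by -0.44 (limma adjusted p = 0.791).

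THT7-8 (gene 544307) encodes a hydroxycinnamoyl transferase, the enzyme that joins hydroxycinnamic acids to tyramine. Its single probe, A_96_P012713, read 2937, 3120 and 2568 on methanol replicates 1, 2 and 3. On loliolide replicates 1, 2 and 3 it read 3496, 3329 and 2652. Before scaling the third loliolide array lay among the methanol arrays, and after scaling all 3 loliolide arrays lay above all 3 methanol arrays, as for 19.8% of all tested probes in this direction. The array of loliolide replicate 3 was dimmer as a whole, with a 75th percentile of 818 against 1048 to 1117 on the 5 others.

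The scaled log2 signal of THT7-8 was 1.37 ± 0.14 (SD, n = 3) with methanol and 1.69 ± 0.06 (SD, n = 3) with loliolide. The difference of 0.32 (SE 0.11), or 1.25-fold with a 95% interval of 1.05-fold to 1.49-fold, did not pass (limma adjusted p = 0.177). An exact two-sided permutation test gave p = 0.1, the smallest it can give. With spike-in scaling the difference was 0.02 (limma adjusted p = 0.951). Within arrays, the log2 ratio of THT7-8 to LAPA2 was -3.26 ± 0.05 with methanol and -2.92 ± 0.20 with loliolide (SD, n = 3). This difference of 0.35 had an exact two-sided permutation p of 0.1, or 0.2 adjusted over the 4 ratios, and it is a difference relative to LAPA2, which itself was at -0.33 with spike-in scaling.

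**Figure D3:**
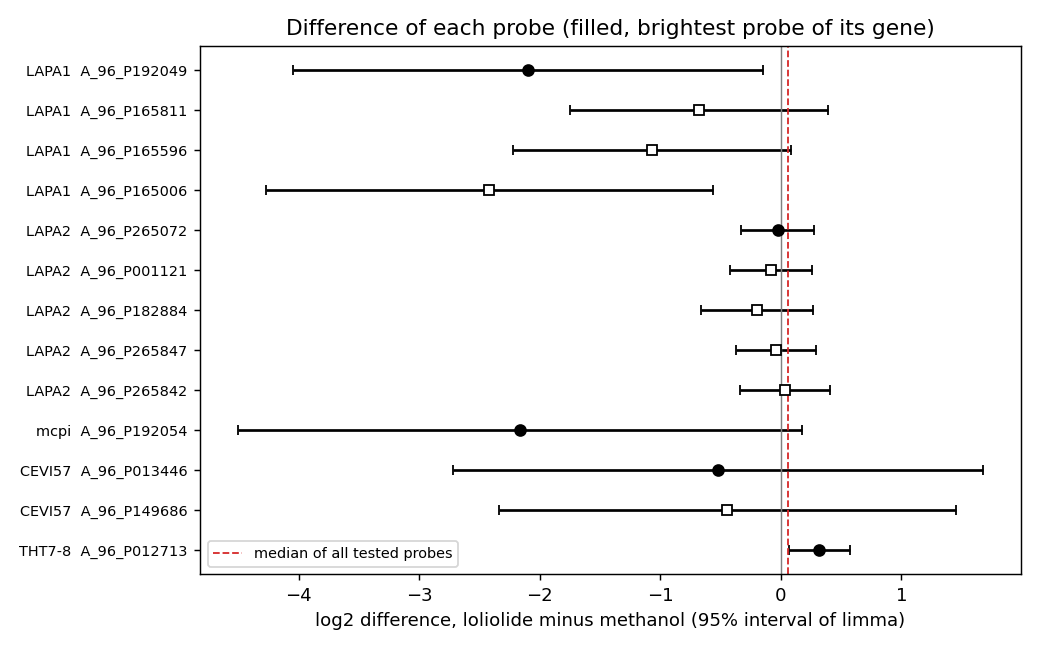
Log2 difference of loliolide minus methanol (horizontal axis) for each of the 13 probes, with 95% intervals from limma, the brightest probe of each gene filled, and the median of all tested probes as a dashed line. The brightest LAPA1 probe, A_96_P165006 and mcpi lie farthest left. The intervals of mcpi, CEVI57, LAPA2 and the LAPA1 probes A_96_P165596 and A_96_P165811 cross 0. The LAPA2 points lie from -0.20 to 0.04. The THT7-8 point lies at 0.32, with an interval of 0.07 to 0.57.

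The 5 genes differed in their spread within groups. The pooled within-group SD of the LAPA1 probes was 0.70 to 1.29 on the log2 scale, that of mcpi 1.55 and those of CEVI57 1.25 and 1.45. Each of these probes was more variable than at least 98.6% of tested probes, whose median SD was 0.17. LAPA2 probes had SDs of 0.16 to 0.28 and THT7-8 one of 0.11, and THT7-8 was more variable than 25.7% of tested probes. Arrays of the methanol group differed at least 4-fold for 6 of the 13 probes, where 0.556% of all tested probes did so. Those of the loliolide group did for 3 of the 13, mcpi and both CEVI57 probes, against 0.299%. One of the 6, A_96_P165596 of LAPA1, lay at the limit. The error that the scanner program gives for each spot was close to 10% of the signal for these probes, except for A_96_P165006, where it reached 28.1% on the array not well above background, and A_96_P149686, where it reached 12.5%.

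**Figure D4:**
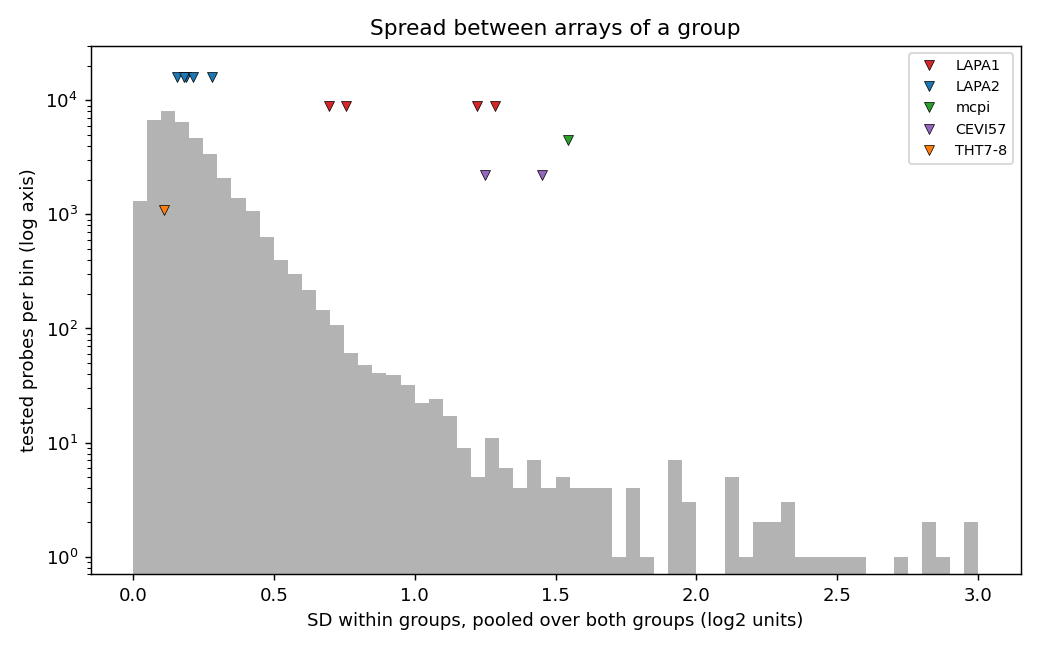
Number of tested probes (vertical axis, log scale) by their SD within groups, pooled over methanol and loliolide (horizontal axis, log2 units), with triangles at the SD of each probe of the 5 genes, set at arbitrary heights. LAPA1, mcpi and CEVI57 lie from 0.70 to 1.55, to the right of most probes, and LAPA2 and THT7-8 lie within the bulk.

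The variable genes did not share 1 pattern over the 6 arrays. LAPA1 was highest on methanol replicate 1, CEVI57 on methanol replicate 2 and mcpi on methanol replicate 3, so that each of the 3 control arrays was the high one for a different gene. Among the loliolide arrays they did share the high one, replicate 2, in their brightest probes. The lowest loliolide array was replicate 1 for LAPA1 and mcpi and replicate 3 for CEVI57. As a description over 6 arrays that share hybridisation and scaling, Pearson's r was 0.34 between LAPA1 and mcpi, 0.44 between LAPA1 and CEVI57 and 0.24 between mcpi and CEVI57. With the group means removed these became -0.23, 0.41 and 0.14. The strongest relation in size among the 10 pairs was between mcpi and THT7-8, at -0.87, or -0.81 with the group means removed.

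Among 793 other named genes well above background on all 6 arrays, those most like each gene were ranked by Pearson's r over the 6 arrays, again as a description. LAPA1 was most like BI-GST/GPX, a glutathione S-transferase gene, at r = 0.957, followed by BMY3, a beta-amylase gene, and NSY, a carotenoid cyclase gene, both at 0.950. BI-GST/GPX spanned 2.16-fold over the arrays, far less than LAPA1. LAPA2 was most like PLDb1, a phospholipase D gene, at 0.986, and mcpi was most like P69A, a subtilisin-like protease gene, at 0.927. CEVI57 was most like DNAPOLALPHA at 0.963, and THT7-8 was most like IPT4, a gene of cytokinin synthesis, at 0.986. P69A spanned 1.66-fold and DNAPOLALPHA 1.33-fold, far less than mcpi and CEVI57, while PLDb1 spanned 1.64-fold and IPT4 2.75-fold. The next in rank were PP2AC1 and APX1 for LAPA2, CIPK14 and PAR1 for mcpi, MET1 and ca3 for CEVI57 and AGO10 and CTR3 for THT7-8, at 0.906 to 0.983.

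Other genes of the wound response gave no passing member either. Of 25 tested genes listed under the wound response, jasmonate and related oxylipin enzymes, 0 rose and 0 fell at a limma adjusted p under 0.05 over all probes. Among all 1101 tested genes with a name 0.636% passed. Before adjustment, 6 higher and 4 lower genes of this list had a limma p under 0.05, where 14.7% of all tested probes were higher and 5.4% lower at that p. With array weights 5 passed the adjusted threshold, where 9.43% of all tested probes did. The median log2 difference was 0.00, with 13 genes higher and 12 lower, or -0.30 with 7 higher and 18 lower under the spike-in scaling. The gene with the greatest difference was TSI-1, at 1.21 (SE 0.23, limma adjusted p = 0.0762), where all loliolide arrays lay above all methanol arrays. In this list the groups did not overlap for 5 genes with higher signal and 3 with lower signal. Of all tested probes 19.8% were higher without overlap and 9.66% lower. ARPI differed by -1.18 (limma adjusted p = 0.265) with groups that overlapped, and by -0.65 without loliolide replicate 3 and -0.68 with array weights. ARG2, an arginase gene known in tomato to be induced by wounding and jasmonate, differed by -0.96 (SE 0.34, limma adjusted p = 0.194), also with overlap.

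Genes listed beside THT7-8 for tyramine amides and phenylpropanoids gave a similar count. The list named PAL, C4H and 4CL, genes that make hydroxycinnamic acids, but none of them was among those tested. Peroxidase genes were also tested, of which CEVI-1 belongs to the wound and jasmonate list as well. Of 9 tested genes 0 rose and 0 fell over all probes, with a median log2 difference of 0.08, 5 higher and 4 lower. Under the spike-in scaling the median was -0.22, with 1 higher and 8 lower, and with quantile normalisation it was -0.0094, with 3 higher and 6 lower. Before adjustment, 1 higher and 1 lower gene had a limma p under 0.05, against the same 14.7% and 5.4% of all tested probes, and with array weights 1 passed, against 9.43%. AADC2, an aromatic amino acid decarboxylase gene, differed by 0.75, or 1.68-fold (limma adjusted p = 0.0866). Its groups did not overlap, as for 19.8% of all tested probes in this direction. CCR1, a cinnamoyl-CoA reductase gene of the lignin branch, differed by -0.58 (limma adjusted p = 0.159). The groups of CCR1 did not overlap either, as for 9.66% of all tested probes in that direction. The gene hqt, whose enzyme makes chlorogenic acid, differed by -0.26 (limma adjusted p = 0.359) with overlap.

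**Figure D5:**
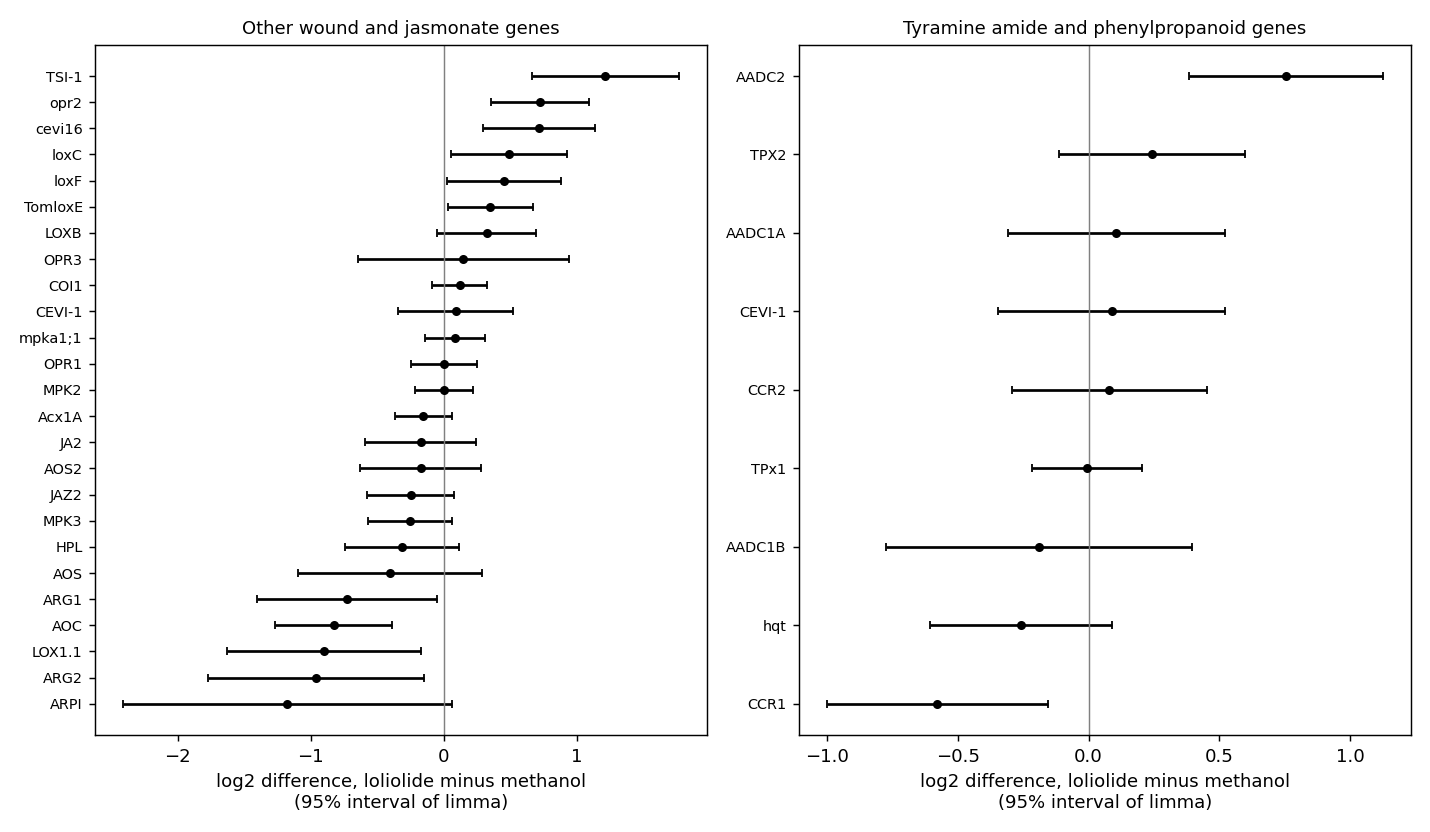
Log2 difference of loliolide minus methanol (horizontal axes) with 95% intervals from limma for 25 other wound and jasmonate genes (left) and 9 tyramine amide and phenylpropanoid genes (right), each shown by its brightest probe. CEVI-1 is in both panels. Points lie on both sides of 0 in either panel, from -1.18 for ARPI to 1.21 for TSI-1 on the left and from -0.58 for CCR1 to 0.75 for AADC2 on the right.

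The authors' deposited table of 27 probes responsive to loliolide holds 0 of the 13 probes.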

How the data were processed

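Leaf RNA of 6 samples (500 ng each, per the labels' protocols) was read on 1-colour Agilent arrays. The authors deposited each array's processed intensity, from which Agilent Feature Extraction had subtracted background and spatial trend, version 11.5.1.1 per the file headers and 9.1 per the submitters' processing notes. No scaling between arrays had been applied to this deposited intensity. The authors also deposited log2 ratios for 27 probes, used only to look up probes.

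The log2 processed signal minus each array's 75th percentile was fitted with limma 3.58.1 (lmFit, eBayes; R 4.3.3), and p-values were adjusted by Benjamini-Hochberg over all 37415 tested probes. Outlier spots were left out, no spot was saturated, and a probe had to be well above background on all arrays of 1 group. The fit was checked on simulated data. The number of arrays limits the precision. Accessions gave 2576 probes a RefSeq gene of SLM_r2.1. The files name no genome build, so no coordinates are given.

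The genes, lists, naming rule and alternatives were chosen with earlier results of these data known. Every probe of the 5 genes is named. From each list the 3 genes with the greatest absolute difference and any that passed are named, and for each gene the 3 named genes with the highest Pearson's r. A list gene was shown by its brightest probe.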

Additional observations from a re-analysis of the deposited data

How the results depend on the processing

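The count of passing probes among the 13 was 0 in the reported fit and in all alternatives except array weights, where it was 2, both of LAPA1. Over all tested probes array weights passed 3527 (9.43%) against 293, and leaving out 1 array passed 0 (without loliolide replicate 1) to 105. Array weights also gave 5 passing genes in the wound and jasmonate list and 1 in the tyramine amide list, against 0 and 0. With them LAPA1 was -2.85 (limma adjusted p = 0.0491), and CEVI57 turned to 0.28 and its second probe A_96_P149686 to 0.21. A_96_P265842 of LAPA2 turned from 0.04 to -0.0082 with median centring, -0.27 with the spike-in scaling and -0.081 with array weights. The cause was not tested. Without each array in turn, the log2 difference ranged from -0.12 to 0.058 for LAPA2 and from -1.33 to 0.19 for CEVI57. In the same fits it ranged from -1.17 to 0.13 for A_96_P149686, from -0.19 to 0.026 for A_96_P001121, from -0.12 to 0.15 for A_96_P265842 and from -0.14 to 0.064 for A_96_P265847. LAPA1 (-2.86 to -1.26), mcpi (-3.10 to -1.39) and THT7-8 (0.24 to 0.38) kept their sign in these 6 fits.

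The replicate block left the log2 differences as they were, with limma adjusted p of 0.404 for LAPA1, 0.369 for mcpi, 0.335 for CEVI57 and 0.382 for THT7-8, and 0 of all tested probes passed. Over all tested probes, deviations from the group means correlated at -0.16, -0.14 and -0.46 between arrays with the same number, and for 0 of 3 loliolide arrays was the best match the methanol array of that number. The planned normexp correction used median signals because the tables used here hold no mean signal. A slide term was not run, since each slide holds 1 group. Signal over background limits A_96_P165006.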
